A study of Mus musculus with 16 samples.

Results

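De novo lipogenesis makes fatty acids from carbohydrate carbon. Cytosolic citrate is cleaved to acetyl-CoA by ATP citrate lyase (*Acly*), acetyl-CoA is carboxylated to malonyl-CoA by acetyl-CoA carboxylase 1 (*Acaca*), and fatty acid synthase (*Fasn*) builds palmitate with NADPH, part of which comes from cytosolic malic enzyme (*Me1*). The product is elongated by *Elovl6* and desaturated by the stearoyl-CoA desaturases *Scd1* and *Scd2*. SREBP-1 (*Srebf1*) and ChREBP (*Mlxipl*) are the transcription factors that link the pathway to insulin and to glucose, and *Thrsp* (Spot 14) is a lipogenic protein that responds to thyroid hormone and carbohydrate. White adipocytes carry out this pathway, and feeding fat is known to lower it. The 10 genes were chosen by name for these roles, with earlier results of these data known. They make up 10 of the 19373 rows of the expression table. In GENCODE M21 (mm10) all are protein-coding. *Acly* (chr11:100476353-100528000), *Acaca* (chr11:84129672-84401651), *Fasn* (chr11:120805846-120824547) and *Srebf1* (chr11:60199089-60222581) lie on chromosome 11, *Scd1* (chr19:44394455-44407879) and *Scd2* (chr19:44293674-44306864) close together on chromosome 19, *Me1* at chr9:86581371-86695953, *Elovl6* at chr3:129532355-129638495, *Mlxipl* at chr5:135089890-135138382 and *Thrsp* at chr7:97412938-97417730.

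Gonadal white adipose tissue (gWAT) of 16 male C57Bl6/J mice, fed either chow or a high fat diet (HFD) for 20 weeks, was profiled by RNA sequencing. All mice carried the floxed *Mboat7* allele. *Mboat7* encodes an acyltransferase that puts arachidonic acid into phosphatidylinositol. Control mice were *Mboat7* flox/flox and *Mboat7* ASKO mice also carried Cre recombinase under the adiponectin promoter and enhancer, which acts in adipocytes, so *Mboat7* stays intact in every other cell type present. The groups were control on chow, ASKO on chow, control on HFD and ASKO on HFD, with 4 mice in each. The 4 mice of a group are called mouse 0 to mouse 3, as their titles number them, and values are given in that order.

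Levels are FPKM, fragment numbers divided by exon length and by the mapped fragments of the mouse, so genes can be compared per length. Differences are given on the log2(FPKM + 1) scale, which understates changes of genes with low levels. Of the 10 genes, 9 reached 1 FPKM in at least 4 mice and were tested among 13148 genes. *Mlxipl* did not and has no test across genes. A gene passed at a Benjamini-Hochberg adjusted p under 0.05 in limma with an absolute log2 fold change over 0.5.

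The steps of low FPKM values put the depth behind the deposited values at an estimated 231000 to 409000 fragments per mouse. Of the low values, 53.7% to 86.9% lay within 0.2 of a whole fragment. Values without steps would give 40% at a depth set beforehand. The depth was picked to fit these same values best, so part of the excess over 40% comes from that choice and the estimates are uncertain. At this depth a low gene rests on a few fragments. The 10 highest genes held 32.6% to 55.2% of the FPKM sum, and over 50% in mouse 1 of control HFD and mouse 3 of ASKO HFD. *Mboat7* itself was at 2.42, 4.33, 0.902 and 4.99 FPKM in control mice on chow, at 0, 1.39, 0 and 2.89 FPKM in ASKO mice on chow, at 0, 0, 2.15 and 1.61 FPKM in control mice on HFD, and at 1.14, 0, 2.60 and 0 FPKM in ASKO mice on HFD. The genotype labels could not be checked from these values, because the groups overlapped and the gene was so low. All 19 adipocyte markers searched for were tested, and of 7 markers of epididymal epithelium 1 (*Adam7*) was listed, at 0.736 FPKM in 1 mouse.

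Promoter sequence is shown for 3 of the genes that were lower on HFD, to set the letters before their starts side by side. RefSeq (GRCm38.p6, the mm10 assembly) gave windows of 250 bases before a transcript start for 8 of the 10 genes and none for *Scd1* and *Scd2*. The last 120 bases before the start are printed 5′ to 3′ on the minus strand, for *Acly* chr11:100528001-100528120, for *Fasn* chr11:120824548-120824667 and for *Thrsp* chr7:97417551-97417670. Capitals mark the CCAAT box (CCAAT) and the GC box (GGGCGG) on either strand.
Acly: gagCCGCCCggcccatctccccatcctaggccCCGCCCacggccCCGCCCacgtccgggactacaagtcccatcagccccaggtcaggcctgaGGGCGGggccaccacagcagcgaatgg
Fasn: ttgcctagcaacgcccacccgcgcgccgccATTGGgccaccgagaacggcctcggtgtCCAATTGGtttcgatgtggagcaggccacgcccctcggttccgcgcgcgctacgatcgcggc
Thrsp: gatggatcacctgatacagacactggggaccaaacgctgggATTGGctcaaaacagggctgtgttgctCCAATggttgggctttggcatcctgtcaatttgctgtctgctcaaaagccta

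The *Fasn* window held CCAAT boxes at -90, -62 and -59, of which the last pair overlap on opposite strands, and the *Thrsp* window held CCAAT boxes at -79 and -52. The *Acly* window held 4 GC boxes and no CCAAT box. Positions are those of the first base, with -1 just before the start. CCAAT stood in 33.8% and GGGCGG in 33% of all 32544 windows, so neither match is rare. The sterol regulatory element TCACNCCAC, searched on both strands, stood in 1.04% of all windows and among these genes only in 1 *Mlxipl* window, and the E-box CACGTG, in 6.03% of all windows, only in the other *Mlxipl* window. The windows of *Elovl6* and *Acaca* held none of these letters, and the *Acaca* window lies inside the GENCODE gene, away from its annotated start.

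**Figure D1:**
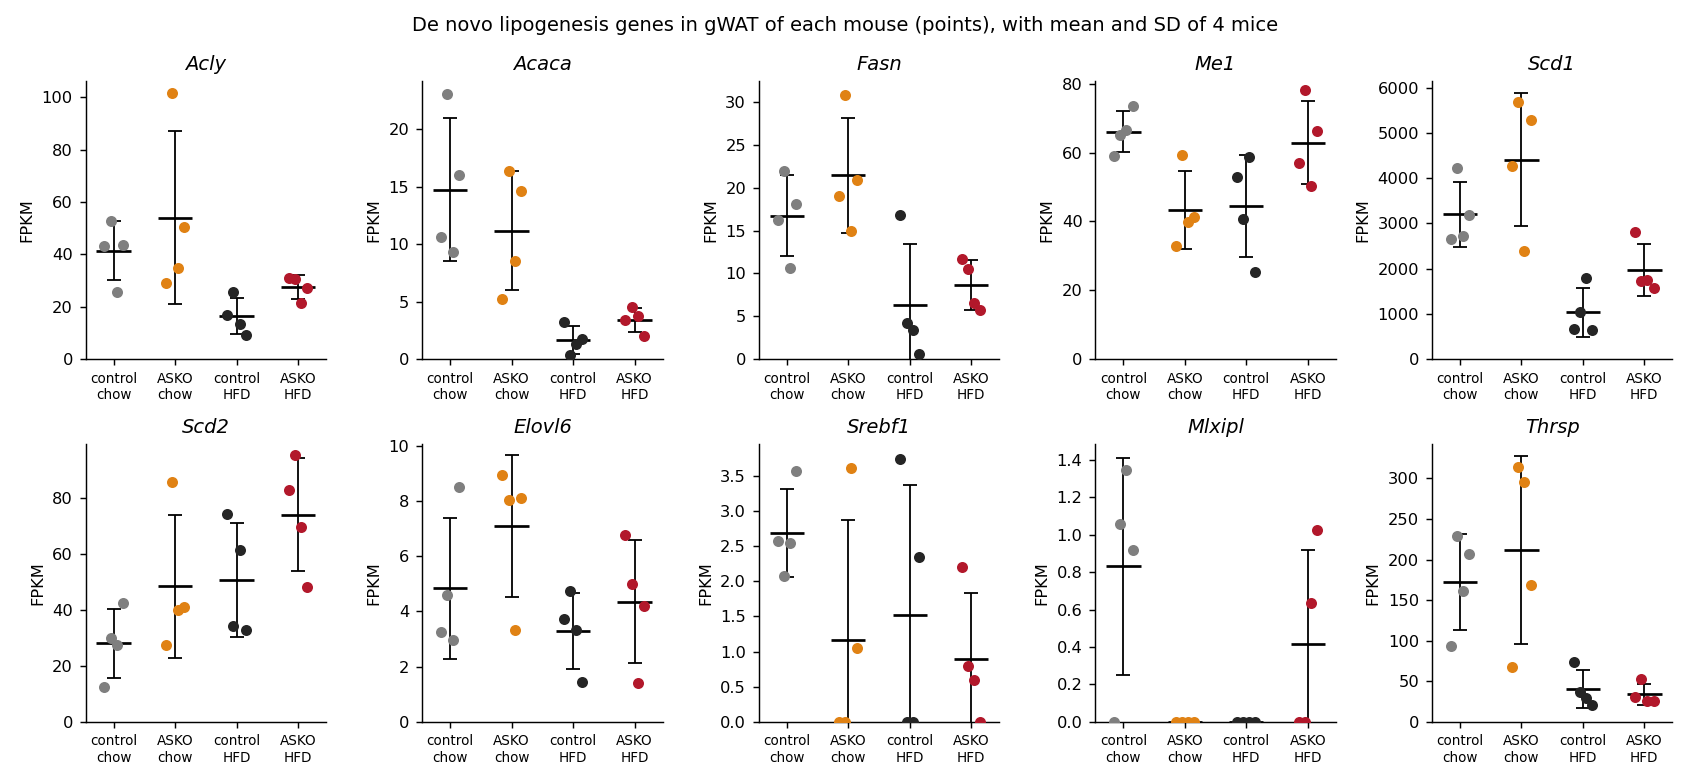
FPKM (y axis, linear, a scale per gene) of each de novo lipogenesis gene in every mouse, by genotype and diet (x axis). Points are mice, the long line is the mean and the bars are 1 SD of 4 mice, cut at 0. *Acaca* and *Thrsp* sat low in both HFD groups, *Scd2* did not, and *Srebf1* and *Mlxipl* were near or at 0 in many mice.

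The levels of the 10 genes spanned a wide range in every group. *Scd1* was far above the others, with a lowest group mean of 1035 FPKM ± 536 (SD, n = 4; control, HFD) and a highest of 4411 FPKM ± 1472 (ASKO, chow). It made up 73.3% to 95.7% of the summed FPKM of the 10 genes in a mouse. In control mice on chow, *Thrsp* followed at 172 FPKM ± 59.7, then *Me1* at 66.1 ± 5.94, *Acly* at 41.4 ± 11.3, *Scd2* at 28.1 ± 12.4, *Fasn* at 16.8 ± 4.73, *Acaca* at 14.7 ± 6.25, *Elovl6* at 4.84 ± 2.55, *Srebf1* at 2.69 ± 0.630 and *Mlxipl* at 0.830 ± 0.581. The ranges of neighbours in this order overlapped from *Acly* to *Acaca* and between *Elovl6* and *Srebf1*. The other neighbours lay apart. Apart from *Scd1*, the summed level ran from 94.1 to 245 FPKM in control mice on HFD and from 241 to 429 FPKM in control mice on chow.

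The first question was how 20 weeks of HFD changed the pathway. Over both genotypes, 5 of the 9 tested genes were lower on HFD: *Thrsp*, *Acaca*, *Fasn*, *Scd1* and *Acly*. No gene of the group was called higher, and *Scd2* went the other way without passing (unadjusted p = 0.0185, adjusted p = 0.142, limma). Among all 13148 genes, 3.04% were called lower and 4.49% higher in the same comparison. The median log2 fold change of the 9 genes was -1.06, against 0.0087 for all tested genes.

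Within genotypes, 3 of 9 (*Acaca*, *Scd1* and *Thrsp*) passed in control mice, where 1.1% of all genes were called lower and 1.81% higher. In ASKO mice 1 of 9 (*Thrsp*) passed, where 1.3% were called lower and 2.13% higher. Every HFD mouse lay below every chow mouse for 5 of the 9 genes in control mice, against 3.89% of all genes, and for 3 of 9 in ASKO mice, against 4.42% of all genes. The median log2 fold change of the 9 was -1.33 in control mice and -0.79 in ASKO mice, but no gene passed the test of the difference between these diet effects, which is given below.

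Of the enzymes that make palmitate, *Acaca* differed most. In control mice it was at 10.6, 23.0, 9.26 and 16 FPKM on chow and at 3.23, 0.328, 1.27 and 1.74 FPKM on HFD. The ASKO values were 5.23, 16.3, 8.55 and 14.6 FPKM on chow and 3.41, 4.54, 3.71 and 2.03 FPKM on HFD. All HFD mice of both genotypes lay below all chow mice. In control mice the mean was 14.7 FPKM on chow and 1.64 FPKM on HFD. The log2 fold change was -2.61 ± 0.47 (SE, adjusted p = 0.00425, limma) in control mice, 0.164 times the chow value of FPKM + 1, and -1.38 ± 0.47 (adjusted p = 0.138) in ASKO mice. Over both genotypes it was -2.0 ± 0.33 (adjusted p = 0.000914), and it passed in control mice and over both genotypes with any 1 mouse left out. The HFD values of control mice rest on an estimated 0.90 to 12.6 fragments, and 52.6% of the 50-base stretches of the longest *Acaca* transcript also occur in the pseudogene *Gm5182*, so the share of reads that belongs to *Acaca* is uncertain.

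*Fasn* was at 16.2, 22, 10.7 and 18.2 FPKM in control mice on chow and at 16.8, 4.24, 3.44 and 0.539 FPKM on HFD. In ASKO mice it was at 19.0, 30.9, 15 and 20.9 FPKM on chow and at 11.7, 10.6, 6.56 and 5.72 FPKM on HFD. The ASKO diet groups did not overlap. In control mice they did, because mouse 0 on HFD stood at the chow level while mouse 3 had an estimated 1.70 fragments. Over both genotypes the log2 fold change was -1.50 ± 0.39 (adjusted p = 0.0255, limma). It was -1.78 ± 0.56 (adjusted p = 0.113) in control mice and -1.23 ± 0.56 (adjusted p = 0.308) in ASKO mice. Without mouse 0 of control HFD the control value was -2.39 and passed (adjusted p = 0.0101), a choice made for its value. Over both genotypes the call was lost without mouse 1 of control chow (adjusted p = 0.0545), mouse 1 of ASKO chow (0.0548), or mouse 2 (0.0504) or 3 (0.0530) of ASKO HFD.

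*Acly*, which supplies the acetyl-CoA, was at 43.4, 52.7, 25.8 and 43.6 FPKM in control mice on chow and at 16.9, 25.5, 13.5 and 9.36 FPKM on HFD, with no overlap. In ASKO mice it was at 28.9, 102, 34.8 and 50.4 FPKM on chow and at 31.0, 30.6, 21.2 and 27.3 FPKM on HFD, where the groups overlapped and mouse 1 on chow was the highest of all. Over both genotypes the log2 fold change was -1.06 ± 0.28 (adjusted p = 0.0263, limma), with -1.33 ± 0.39 (adjusted p = 0.0904) in control mice and -0.79 ± 0.39 (adjusted p = 0.366) in ASKO mice. The pooled call was lost without mouse 1 (adjusted p = 0.0585) or 3 (0.0504) of control chow, mouse 3 of control HFD (0.0565) or mouse 2 of ASKO HFD (0.0552). In control mice alone, *Acly* passed once mouse 1 of ASKO chow was left out of the shared spread (adjusted p = 0.0487).

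*Me1*, which supplies NADPH, did not follow the other enzymes. It was at 59.1, 65.1, 66.5 and 73.6 FPKM in control mice on chow and at 53.0, 40.8, 58.7 and 25.4 FPKM on HFD, where the highest mouse lay just under the chow range and the lowest far under it. ASKO mice had 32.7, 59.4, 39.9 and 41.3 FPKM on chow and 56.8, 78.2, 50.4 and 66.2 FPKM on HFD. The HFD mice thus lay lower in control mice and mostly higher in ASKO mice, by -0.62 ± 0.29 (adjusted p = 0.342, limma) and 0.54 ± 0.29 (adjusted p = 0.408) on the log2 scale. Neither passed, and the value over both genotypes was -0.041 ± 0.21 (adjusted p = 0.954). The 50-base stretches of the *Me1* transcript occur in the pseudogenes *Gm7049* and *Gm7329* for 26.5% of its length, and an exon of *A330041J22Rik* overlaps *Me1* on the other strand.

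The desaturases parted. *Scd1*, the main adipose delta-9 desaturase, was at 2659, 4224, 2729 and 3182 FPKM in control mice on chow and at 672, 1046, 1789 and 631 FPKM on HFD, with no overlap. In ASKO mice it was at 4264, 5689, 2396 and 5294 FPKM on chow and at 2815, 1728, 1741 and 1580 FPKM on HFD, where mouse 2 on chow fell below mouse 0 on HFD. In control mice the log2 fold change was -1.73 ± 0.34 (adjusted p = 0.00811, limma), 0.301 times the chow value of FPKM + 1. In ASKO mice it was -1.13 ± 0.34 (adjusted p = 0.0830), and over both genotypes -1.43 ± 0.24 (adjusted p = 0.000941). With 1 mouse left out, the calls in control mice and over both genotypes held each time, and the ASKO value passed without mouse 2 of ASKO chow (adjusted p = 0.0284) or mouse 2 of control HFD (0.0445).

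*Scd2*, a paralog of *Scd1*, was at 12.4, 29.9, 27.6 and 42.6 FPKM in control mice on chow and at 74.3, 34.4, 61.4 and 32.9 FPKM on HFD. Among ASKO mice it was at 27.5, 85.8, 40 and 40.9 FPKM on chow and at 83.2, 95.5, 69.9 and 48.3 FPKM on HFD. The groups overlapped in both genotypes. The log2 fold change was 0.86 ± 0.42 (adjusted p = 0.369, limma) in control mice, 0.68 ± 0.42 (adjusted p = 0.485) in ASKO mice and 0.77 ± 0.30 (adjusted p = 0.142) over both, with a 95% interval of 0.15 to 1.40 before adjustment.

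The ratio of *Scd1* to *Scd2*, which needs no scaling between mice, was 74.7 to 215 in control mice on chow and 9.05 to 30.4 on HFD. In ASKO mice it was 59.9 to 155 on chow and 18.1 to 33.8 on HFD. All HFD mice lay below all chow mice. This ratio was chosen with the values of both genes known and is given as a description. Of the 50-base stretches of the 2 transcripts, 4.66% of *Scd1* and 4.01% of *Scd2* occur in other genes, mostly of the same family.

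**Figure D2:**
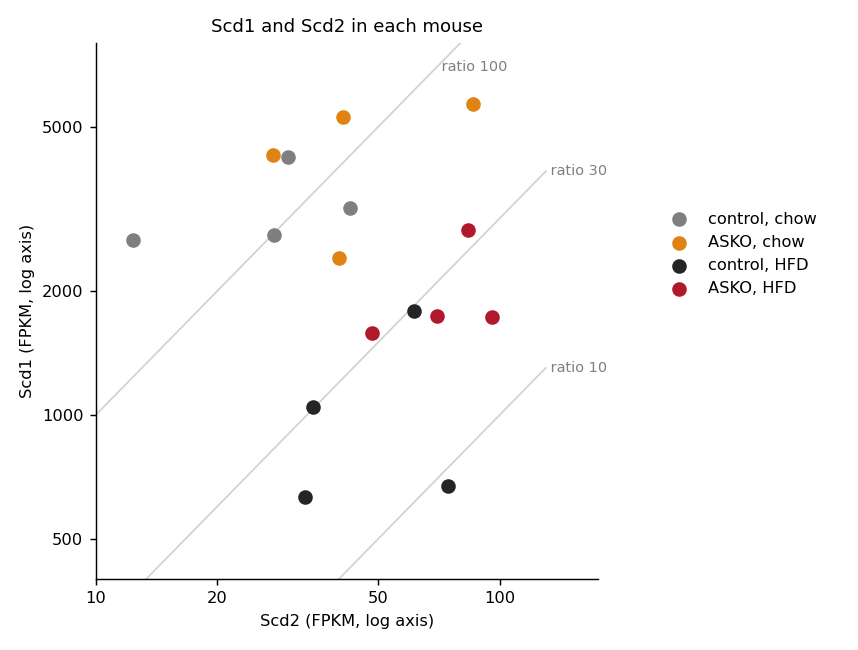
*Scd1* (y axis) against *Scd2* (x axis) in FPKM on log axes, 1 point per mouse, coloured by group. Grey lines mark ratios of 10, 30 and 100. The 8 chow mice lie between ratios of 59.9 and 215 and the 8 HFD mice between 9.05 and 33.8, with *Scd1* lower and *Scd2* not lower on HFD.

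*Elovl6*, which extends palmitate to stearate, was low and showed no diet difference beyond its spread. It ran from 2.98 to 8.50 FPKM in control mice on chow and from 1.44 to 4.74 FPKM on HFD, and from 3.31 to 8.95 FPKM in ASKO mice on chow and from 1.41 to 6.75 FPKM on HFD. All 4 groups overlapped, and the values rest on an estimated 2.70 to 17.5 fragments. The log2 fold change over both genotypes was -0.53 ± 0.34 (adjusted p = 0.448, limma), with a 95% interval of -1.26 to 0.19.

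Among the regulators, *Thrsp* had the clearest response. It was at 93.4, 229, 161 and 206 FPKM in control mice on chow and at 73.7, 37.1, 28.8 and 20.3 FPKM on HFD. Among ASKO mice it was at 67.8, 314, 296 and 168 FPKM on chow and at 30.9, 52.5, 26.1 and 25.3 FPKM on HFD. The diet groups did not overlap within either genotype. The log2 fold change was -2.16 ± 0.48 (adjusted p = 0.0189, limma) in control mice, 0.223 times the chow value of FPKM + 1, and -2.45 ± 0.48 (adjusted p = 0.00737) in ASKO mice, 0.183 times. Over both genotypes it was -2.31 ± 0.34 (adjusted p = 0.000289). The ASKO and pooled calls held with any 1 mouse left out. The control call was lost without mouse 1 (adjusted p = 0.0689) or 3 (0.0608) of control chow, or mouse 2 (0.0524) or 3 (0.0674) of control HFD.

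The transcription factors were too low to compare closely. *Srebf1* was at 2.58, 2.07, 2.55 and 3.57 FPKM in control mice on chow, at 0, 0, 3.62 and 1.06 FPKM in ASKO mice on chow, at 3.75, 0, 0 and 2.35 FPKM in control mice on HFD and at 2.21, 0.788, 0.600 and 0 FPKM in ASKO mice on HFD. These are an estimated 0 to 6.6 fragments, 5 mice are listed at 0, and the log2 fold change over both genotypes was -0.44 ± 0.43 (adjusted p = 0.659, limma). *Mlxipl* was at 0, 1.06, 1.35 and 0.918 FPKM in control mice on chow and at 0, 0, 0.635 and 1.02 FPKM in ASKO mice on HFD, and is listed at 0 in the 8 mice of the other groups. *Srebf1* passed in no contrast. For *Mlxipl* the diet effects of the genotypes differed by 1.23 (exact permutation p = 0.0306 with genotype shuffled within each diet, unadjusted). In its other contrasts the exact permutation p ran from 0.143 to 0.429. The highest *Mlxipl* value rests on an estimated 1.6 fragments. The exons of both genes overlap genes on the other strand (*Rai1* for *Srebf1*, *Gm43500* for *Mlxipl*).

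**Figure D3:**
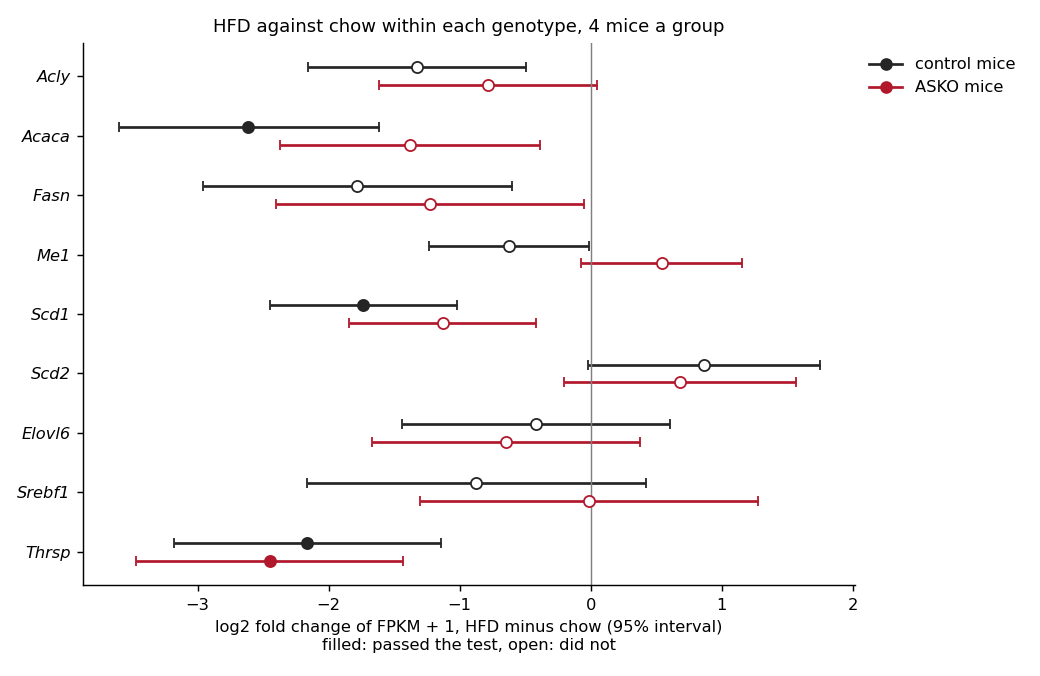
Log2 fold change of FPKM + 1, HFD minus chow (x axis), of each tested gene (y axis) in control and ASKO mice, with the 95% interval from limma. Filled points passed the test. *Acaca*, *Scd1* and *Thrsp* passed in control mice and *Thrsp* in ASKO mice, and the *Scd2* points lie above 0 in both.

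Cell type markers moved with diet too, and their part in these results was not tested. In bulk tissue, fewer cells of a type and less RNA per cell cannot be told apart. Of 19 adipocyte markers, 10 were lower and 1 (*Lep*, leptin) was higher on HFD over both genotypes, with a median log2 fold change of -0.81. Among all genes 3.04% were called lower and 4.49% higher in this comparison, and 19.4% had an unadjusted p under 0.05 in limma. *Cfd* (adipsin) fell by 5.80 ± 0.26 (adjusted p = 7.21e-10, limma) and *Retn* (resistin) by 2.91 ± 0.39 (adjusted p = 0.000104), while *Lep* rose by 1.78 ± 0.23 (adjusted p = 9.28e-05). The summed FPKM of the adipocyte markers was 10227 to 27351 on chow and 5331 to 11904 on HFD over both genotypes. *Fabp4* alone was at 6522 to 22038 FPKM on chow and 3303 to 8347 FPKM on HFD, so these sums mostly follow 1 gene. Of 15 macrophage markers 11 were higher, with a median of 1.86, led by *Trem2* at 4.76, *Ctss* at 3.94 and *Cd68* at 3.68, and their summed FPKM was 240 to 344 on chow and 973 to 1822 on HFD. *Trem2* was listed at 0 in 5 of 8 chow mice. Of 5 tested mesothelial markers 1 (*Lrrn4*) was lower, all 5 had an unadjusted p under 0.05 in limma with a median of -1.33, and the summed FPKM of 6 was 14.3 to 33.6 on chow and 0 to 10.9 on HFD. Of 9 endothelial and stromal markers 1 (*Col3a1*) was higher.

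Relative to the adipocyte markers, the pattern changed. Their mean takes in *Cfd* (-5.80 over both genotypes) and *Retn* (-2.91), which fell far more than the median marker (-0.81). A mean without *Cfd* and *Retn* was not tried. With each mouse centred on the mean of these 19 markers, the diet difference of the median gene moved from 0.0087 to 0.91 over both genotypes, and the split of the lipogenesis genes went from 0 higher and 5 lower to 2 higher and 2 lower. Under this centring 39% of all genes were called higher and 0.677% lower, so the 2 of 9 called higher are a smaller share than that of all genes. *Acaca* (-1.10) and *Thrsp* (-1.41) were still called lower. *Fasn* (-0.60, adjusted p = 0.174), *Scd1* (-0.53, adjusted p = 0.0707) and *Acly* (-0.16, adjusted p = 0.624) no longer passed in limma. *Scd2* (1.67) and *Me1* (0.86) were called higher, and *Me1* lay below the median gene. *Elovl6* (0.37) and *Srebf1* (0.46) changed sign without passing. In control mice the split went from 0 higher and 3 lower to 1 higher and 2 lower, where 9.55% of all genes were called higher and 0.327% lower. In ASKO mice it went from 0 higher and 1 lower to 2 higher and 1 lower, where 24.4% of all genes were called higher and 0.274% lower.

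**Figure D4:**
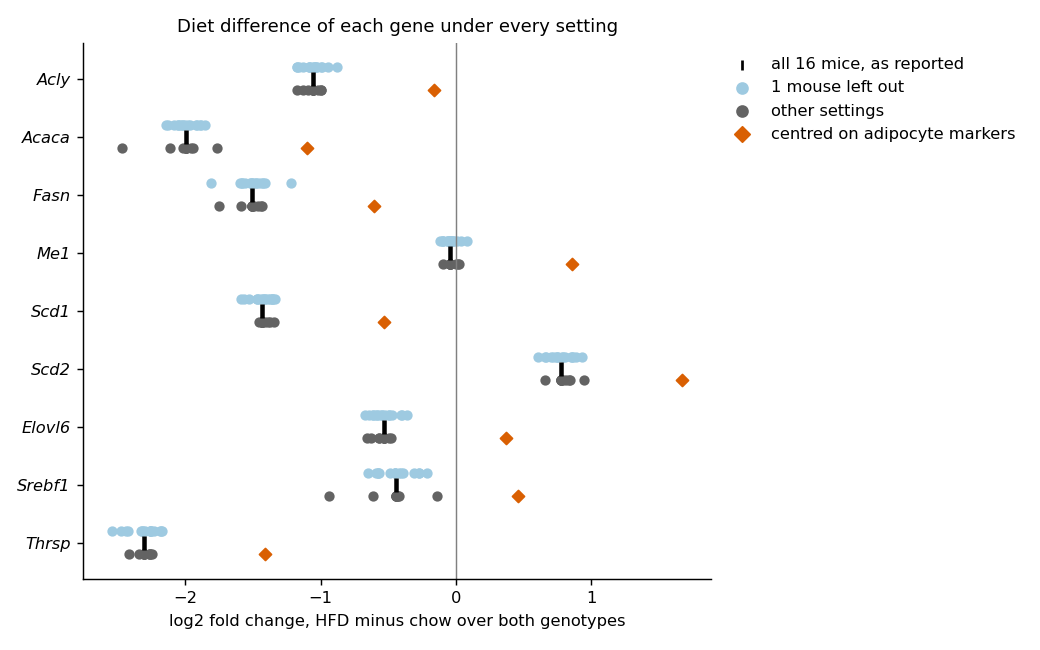
Log2 fold change, HFD minus chow over both genotypes (x axis), of each tested gene (y axis) under every setting. Black marks are the reported values, blue points leave out 1 mouse, grey points are other settings and orange diamonds are centred on the adipocyte markers. *Acly*, *Acaca*, *Fasn*, *Scd1* and *Thrsp* stay below 0 and *Scd2* above 0 throughout, while centring puts *Me1*, *Elovl6* and *Srebf1* above 0. *Me1* lies near 0 on either side under the others.

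Without both mice that had over 50% of their FPKM sum in the 10 highest genes, an alternative chosen after seeing the data, 4 of 9 genes were lower on HFD over both genotypes, 2 in control mice and 1 in ASKO mice, against 2.13%, 0.715% and 0.799% of all genes. *Fasn* (adjusted p = 0.0806, limma) was lost over both genotypes and *Thrsp* (adjusted p = 0.0607) in control mice.

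In lists of related genes few or none passed. None of 24 tested enzymes of fatty acid synthesis and acyl chain metabolism other than the 10 genes passed in any of the 7 contrasts in limma. With diet over both genotypes 6 of them had an unadjusted p under 0.05, against 19.4% of all genes, 4 with lower values (*Aacs*, *Pcx*, *Hacd1* and *Hacd2*) and 2 with higher (*Acsl3* and *Elovl1*), named after their values were seen. Their median log2 fold change with diet over both genotypes was 0.022. Of 12 genes of NADPH supply 1, the pentose phosphate enzyme *Tkt*, was lower (-1.20 ± 0.30, adjusted p = 0.0195), against 3.04% of all genes, and the median was 0.056. Of 18 genes of glucose uptake and glycolysis 1, *Pdha1* of pyruvate dehydrogenase, was lower (-0.84 ± 0.19, adjusted p = 0.0118), against the same 3.04%. *Pdha1* also passed in control mice (-1.07 ± 0.27, adjusted p = 0.0431), where 1.1% of all genes were called lower. A single call in lists this short does not set them apart from all genes. The median of the 18 genes was -0.093.

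Of 17 tested regulators of the SREBP and ChREBP pathways, 2 were higher on HFD over both genotypes and none was lower, against 4.49% and 3.04% of all genes. *Insig1*, which retains SREBP in the endoplasmic reticulum and is itself an SREBP target, was at 13.2, 11.5, 20.7 and 25.0 FPKM in control mice on chow and at 52.2, 49.2, 87.5 and 26.5 FPKM on HFD. *Insig1* in ASKO mice was at 47.2, 56.4, 16.8 and 19.9 FPKM on chow and at 136, 96.3, 118 and 71.8 FPKM on HFD. The diet groups did not overlap in either genotype. The log2 fold change was 1.60 ± 0.31 (adjusted p = 0.00290, limma) over both genotypes and 1.70 ± 0.43 (adjusted p = 0.0380) in ASKO mice. In control mice *Insig1* was higher without passing (adjusted p = 0.0797, limma). Over both genotypes *Insig1* was thus called higher while *Fasn* and *Acaca* were called lower. In neither genotype alone did *Insig1* pass together with *Fasn* or *Acaca*. *Nfya*, a subunit of the factor that binds CCAAT boxes, was higher by 1.59 ± 0.43 (adjusted p = 0.0309), from a level of 0 in 5 of 8 chow mice.

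The second question was whether loss of *Mboat7* in adipocytes changed the pathway. On HFD no gene of the group passed. *Acly*, *Acaca*, *Fasn*, *Me1*, *Scd1*, *Scd2* and *Elovl6* had higher mean levels in ASKO mice, and the median log2 difference of the 9 genes was 0.58, against 0.024 for all tested genes. Of the 9, 1 (*Scd1*) had an unadjusted p under 0.05 in limma, against 5.15% of all genes, and of all genes 0.00761% passed after adjustment. No gene of the group had groups that did not overlap, against 3.38% of all genes.

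*Scd1* on HFD was higher in ASKO mice by 1.02 ± 0.34 (95% interval 0.30 to 1.73, unadjusted p = 0.00804, adjusted p = 0.852, limma). The highest control mouse, mouse 2 at 1789 FPKM, lay above 3 of the 4 ASKO mice, and the exact permutation p of 0.114 is two-sided with a smallest possible value of 0.0286. *Fasn* differed by 0.89 ± 0.56, *Acaca* by 0.83 ± 0.47 and *Acly* by 0.79 ± 0.39, with adjusted p from 0.972 to 0.978 in limma and 95% intervals that include 0. For *Me1* the difference was 0.54 ± 0.29, for *Scd2* 0.58 ± 0.42 and for *Elovl6* 0.26 ± 0.48. *Thrsp* and *Srebf1* differed by -0.14 ± 0.48 and -0.20 ± 0.61. Macrophage marker sums were 973 to 1387 FPKM in control and 1219 to 1822 FPKM in ASKO mice on HFD, and adipocyte marker sums, mostly *Fabp4*, 5331 to 11904 and 7282 to 8246 FPKM. None of the 15 macrophage markers and 1 of the 19 adipocyte markers had an unadjusted p under 0.05 for genotype on HFD in limma. Their part in the *Scd1* difference was not tested. Of the other 24 fatty acid enzymes, 17 had values above 0 for ASKO against control mice on HFD, where 51.5% of all genes did. Their median was 0.33, against 0.024 over all genes, with 2 unadjusted p under 0.05 and none passing. No gene of these lists was called by genotype.

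On chow none of the 9 genes passed either, 1 (*Me1*) had an unadjusted p under 0.05 in limma against 4.8% of all genes, and 0.00761% of all genes passed after adjustment. No gene of the group separated the genotypes, against 2.19% of all genes. *Me1* was lower in ASKO mice by -0.63 ± 0.29 (unadjusted p = 0.0461, adjusted p = 0.983), where mouse 1 of ASKO chow reached the control range. *Scd2* differed by 0.76 ± 0.42, *Elovl6* by 0.49 ± 0.48, *Scd1* by 0.41 ± 0.34, *Fasn* by 0.33 ± 0.56, *Acly* by 0.25 ± 0.39, *Thrsp* by 0.14 ± 0.48, *Acaca* by -0.40 ± 0.47 and *Srebf1* by -1.06 ± 0.61. For each of the 9 genes the 95% interval reached beyond 1 log2 unit on one side of 0.

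**Figure D5:**
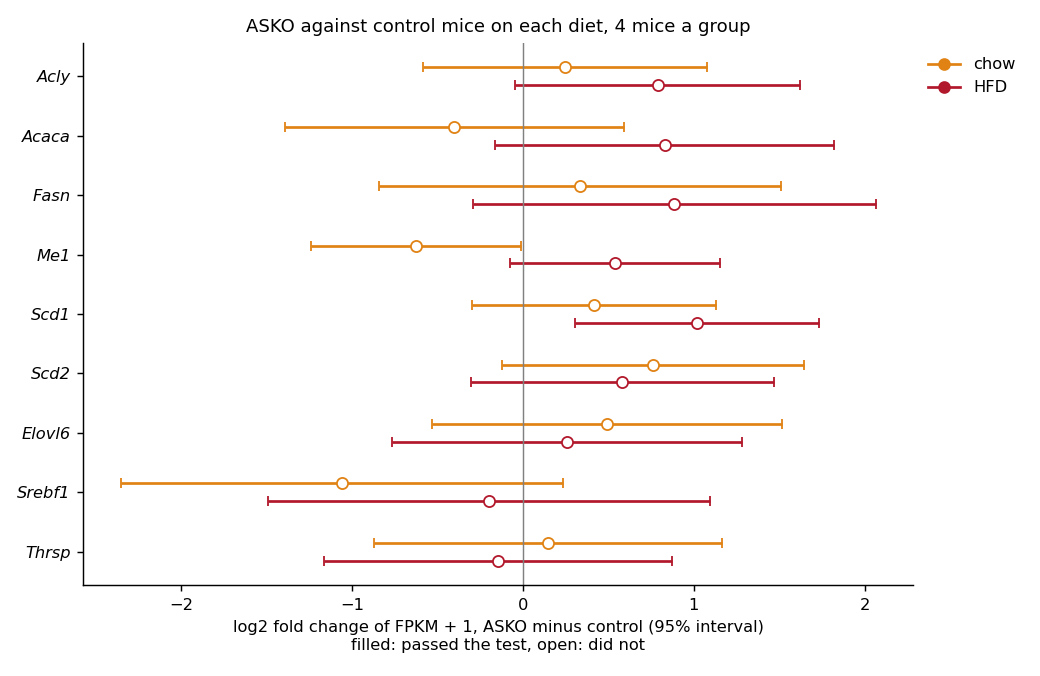
Log2 fold change of FPKM + 1, ASKO minus control (x axis), of each tested gene (y axis) on chow and on HFD, with the 95% interval from limma. Open points did not pass the test, and none passed. On HFD 7 of 9 points lie above 0, and on chow 6 of 9.

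Over both diets none of the 9 genes passed in limma and 0% of all genes did. An unadjusted limma p under 0.05 was reached by 2, *Scd1* (0.72 ± 0.24) and *Scd2* (0.67 ± 0.30), against 3.76% of all genes. Their adjusted p was 1, with exact permutation p of 0.0208 and 0.0384.

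The test of whether diet acted differently in the 2 genotypes called none of the 9 genes and 0% of all genes in limma. Of the 9, 1 (*Me1*) had an unadjusted p under 0.05, against 6.3% of all genes. The *Me1* diet difference was larger in ASKO than in control mice by 1.16 ± 0.41 (95% interval 0.30 to 2.03, unadjusted p = 0.0117, adjusted p = 0.663), with an exact two-sided permutation p of 0.00490 over 4900 arrangements, unadjusted for the other genes. These arrangements shuffled genotype within each diet. That p therefore assumes no genotype difference on either diet, which is more than equal diet effects in the 2 genotypes. The 4 contrasts between pairs of groups share groups with each other and with this test, so their values are not independent.

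How the genes varied together between mice was described within each diet, since the diets form separate clusters. Over 8 mice of a diet, both genotypes pooled, log2 levels were compared with those of *Fasn*, in 16 relations, and none had an adjusted p under 0.05. On chow *Scd1* had r = 0.834 (exact permutation p = 0.00484, adjusted 0.0577) and rho = 0.857 (exact p = 0.0107, adjusted 0.0820), with r = 0.916 without the 2 mice farthest from the *Fasn* median. *Acly* had r = 0.879 (exact permutation p = 0.00722, adjusted 0.0577) and rho = 0.857 (exact permutation p = 0.0107, adjusted 0.0820). Without the 2 mice farthest from the *Fasn* median its r was 0.513, so r depends on them. Leaving them out also narrows the range of *Fasn*. On HFD *Scd2* had r = 0.803 (exact p = 0.0126, adjusted 0.0675) and rho = 0.833 (exact p = 0.0154, adjusted 0.0820), with r = 0.75 without 2 mice. Of all tested genes, 0.138% on chow had an r with *Fasn* at least that of *Acly* and 0.460% at least that of *Scd1*. On HFD 0.977% had at least that of *Scd2*. *Scd1* on HFD had r = 0.366, which 19.5% of all tested genes reached. All values of a mouse come from 1 library.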

How the data were processed

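Per the methods and labels, mRNA libraries were made with a directional kit, and the authors used TrimGalore for trimming, STAR for alignment to mm10 with the GENCODE annotation, and Cufflinks for FPKM. The deposited table holds FPKM only, with 1 column for each mouse. How Cufflinks normalized the libraries or used strand, and which GENCODE release it read, are not given in the sources used here. Without counts, a count test could not be used. The labels and methods name different sequencers.

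IDs were matched to GENCODE M21 (99.6% found), and 22 symbols altered by a spreadsheet were restored. Values were analysed as log2(FPKM + 1) for the 13148 genes that reached 1 FPKM in 4 or more mice. limma 3.58.1 (R 4.3.3) fitted the 4 groups in one model with an intensity trend, for 7 contrasts, with Benjamini-Hochberg adjustment in each. Calls needed an adjusted p under 0.05 and an absolute log2 fold change over 0.5. Standard errors are moderated. The test was checked on simulated data drawn from normal distributions. These lack the zeros and fragment steps of low genes, so the check does not cover genes with few fragments. Exact permutation tests were two-sided over 70 splits, or 4900 within strata. For diet over both genotypes, diet was shuffled within each genotype. For genotype over both diets and for the interaction, genotype was shuffled within each diet. Correlations covered 16 relations, where 18 had been planned, because *Mlxipl* was below the filter. Depth was estimated from the FPKM steps of 1475 genes with 1 transcript of at least 1000 bases. Shared 50-base stretches and overlaps come from M21, promoters from RefSeq. Python 3.11.15, pandas 2.3.3, numpy 2.4.6, scipy 1.17.1 and matplotlib 3.10.9 were used.

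The genes named are the 10 genes, *Mboat7*, and for each other list (other fatty acid enzymes, NADPH supply, SREBP and ChREBP regulators, glucose uptake and glycolysis, and markers of adipocytes, macrophages, mesothelium, endothelium with stroma, and epididymal epithelium) up to 3 called genes with the largest change per contrast. Also named without a call are *Adam7*, *Fabp4* for its share of a marker sum, and genes that share sequence or exons with the 10. So are the other fatty acid enzymes with an unadjusted p under 0.05 in limma for diet over both genotypes. These genes and lists were chosen with earlier results of these data known. The labels do not say more of litters or batches than the mouse numbers. The alternatives were no filter, a filter of 5 FPKM, a pseudocount of 0.1, quantile and upper-quartile scaling, rescaling without the 10 highest rows, centring on adipocyte markers, only the groups compared, array weights, no trend, robust estimation, no fold change limit, a replicate block, leaving out each mouse, and leaving out 2 mice together.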

Additional observations from a re-analysis of the deposited data

Results flagged for a closer look

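In the 68 sets of 4 mice examined (each gene, ratio and library measure in each group), 6 had a mouse whose gap to the next took up a share of the range above Dixon's 95% critical value, where chance gives about 1 in 20, or 3.4 sets. *Scd1* in mouse 0 of ASKO HFD was 2815 FPKM, against 1580 to 1741 FPKM in the other 3. *Elovl6* in mouse 2 of ASKO chow was 3.31 FPKM, against 8.02 to 8.95 FPKM. The ratio of *Acly* to *Acaca* in mouse 1 of control HFD was 78.0, against 5.24 to 10.6, where *Acaca* had an estimated 0.90 fragments. The FPKM sum of mouse 1 of control chow was 772406, against 611890 to 636209, and its share in the 10 highest genes was 42.0%, against 35.4% to 35.8%. That share was 54.2% in mouse 3 of ASKO HFD, against 38.7% to 39.2%.

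The diet difference of *Me1* was larger in ASKO than in control mice by 1.16 on the log2 scale, with an exact permutation p of 0.00490 (genotype shuffled within each diet) and an adjusted p of 0.663 in limma over all tested genes.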

How the results depend on the processing

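Over the settings tried, the genotype and interaction contrasts called 0 of the 9 genes each time in limma. The count lower with diet in control mice stayed within 1.5 times of 3. In ASKO mice the count of 1 became 2 with array weights and 3, 2 of them higher, with centring on adipocyte markers, and ran from 1 to 2 with 1 mouse left out. Over both genotypes the count of 5 ran from 3 to 5 with 1 mouse left out, and was 3 without mouse 1 of control chow or mouse 2 of ASKO HFD. The replicate block left the counts at 3, 1 and 5. Same-numbered mice are different animals, and the correlations of their deviations ran from -0.19 to 0.15 over 24 pairs, so the numbers were not taken to pair them.

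Centring on adipocyte markers reversed *Acly* in ASKO mice (0.26), *Me1* in control mice (0.13) and over both genotypes (0.86), *Elovl6* in control (0.34), ASKO (0.40) and both (0.37), *Srebf1* in ASKO (1.03) and both (0.46), and with genotype on HFD *Srebf1* (0.041) and *Thrsp* (0.096). *Me1* over both genotypes also reversed with quantile normalization (0.024), upper-quartile scaling (0.0014) and rescaling without the 10 highest rows (0.018). *Srebf1* with diet in ASKO mice reversed with a pseudocount of 0.1 (0.43), that rescaling (0.087), array weights (0.13) and without both mice of high top-10 share (0.25), and with genotype on HFD with the pseudocount of 0.1 (0.15). The rescaling turned *Thrsp* with genotype on chow (-0.0095) and on HFD (0.014). With 1 mouse left out, signs changed for *Acly* with genotype on chow (-0.11 to 0.48), *Me1* with diet over both (-0.12 to 0.079), *Srebf1* with diet in ASKO mice (-0.31 to 0.45) and genotype on HFD (-0.53 to 0.22), and *Thrsp* with genotype on chow (-0.12 to 0.61) and HFD (-0.40 to 0.20). None of these values was called in the reported fit, and the cause was not tested. A filter of 5 FPKM left *Srebf1* without a value. Few fragments limit *Srebf1*, *Mlxipl*, *Elovl6* and *Acaca* on HFD.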
